A study of Mus musculus with 12 samples.

Results

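Oxidative phosphorylation genes were taken from the deposited table as the protein_coding rows whose symbol begins with mt-, *Nduf*, *Uqcr*, *Atp5*, or *Cox* followed by a digit from 4 to 8, together with *Sdha*, *Sdhb*, *Sdhc*, *Sdhd*, *Cyc1* and *Cycs*. Of 16971 listed genes, 105 met this rule, 13 of them on the mitochondrial DNA (mtDNA) and 92 in the nucleus. A filter kept the 102 whose normalized counts reached 10 when added over all libraries, and the other 3 were *Cox4i2*, *Cox6a2* and *Cox7a1*, isoforms of complex IV subunits. All 13 mtDNA genes and 89 nuclear genes were thus kept, among 12891 genes kept in all.

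The cells were GFP(+) cells, isolated by FACS from the nonparenchymal fraction of livers of adult *Prom1CreERT2-nLacZ/+;Rosa26Lsl-GFP/+* mice, labelled C57BL/6. Per the methods the *Prom1* allele came on C57BL/6N and the *Rosa26* allele on C57BL/6J. In these mice tamoxifen switches on GFP in cells in which the *Prom1* promoter is active when it is given, and their progeny keep it. Every mouse carried both alleles and, per the methods, received tamoxifen at 6 weeks of age, 7 days before surgery. Age at collection thus rose with the day after surgery. The groups were day 0 (labelled sham, and described in the study's methods as before surgery), BDL day 3 and BDL day 14, where BDL is bile duct ligation. The table holds means over 3 day 0, 3 BDL day 3 and 4 BDL day 14 libraries, although the labels describe 6 libraries of BDL day 14, and the methods give different numbers of male and female mice in the groups.

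The respiratory chain passes electrons from NADH (complex I) and succinate (complex II) through complex III and cytochrome c to oxygen at complex IV, and ATP synthase (complex V) uses the proton gradient made on the way. Complexes I, III, IV and V are built from subunits of both genomes, while complex II is nuclear throughout. The mtDNA is transcribed as long RNAs from both strands that are cut into single mRNAs at the tRNAs between them, so its genes share promoters and are not transcribed one by one. In the liver, hepatocytes are rich in mitochondria.

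Each value below is the authors' mean of upper-quartile-normalized counts for a group. No value for a named library was analysed, so no test between groups was made, no SD measured over named replicates is given and the read depth of the libraries is unknown. In its place stands a ratio past 1.5-fold of the group means, the fold the study uses, beside the percentage of all 12891 genes past it in that direction. The table also holds the geometric mean over the 10 libraries, and for each gene the highest count in any library, without naming that library. The gap between the group means and the geometric mean gave the within-group spread of each gene, as the SD of log2 values with 7 degrees of freedom, and the highest count was placed in a group where the group means left no other room for it. The median of this spread was 0.58 over all genes, 0.45 over the nuclear members and 0.77 over the mtDNA members.

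The 13 mtDNA genes lie close together, and pairs of them share bases. The most extensive overlap joins the open reading frames of *mt-Atp8* and *mt-Atp6*, both subunits of the membrane part of ATP synthase, and it is shown because a read from these bases belongs to both genes. It covers 43 bases at chrM:7927-7969, from the start codon of *mt-Atp6* to the end of *mt-Atp8*. The overlap of the complex I genes *mt-Nd4l* and *mt-Nd4* is also shown and covers 7 bases at chrM:10167-10173. *mt-Atp6* and *mt-Co3* share 1 base, and *mt-Nd5* and *mt-Nd6* share 14 bases on opposite strands. Capitals mark the shared bases, with 20 bases to each side (GRCm38, plus strand, from the GENCODE M21 transcripts).
mt-Atp8/mt-Atp6: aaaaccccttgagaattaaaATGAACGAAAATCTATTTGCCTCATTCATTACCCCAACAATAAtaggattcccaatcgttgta
mt-Nd4l/mt-Nd4: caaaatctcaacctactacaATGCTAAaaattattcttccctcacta

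All 13 mtDNA genes were lower on BDL day 3 than on day 0, and lower again on BDL day 14, with every ratio past 1.5-fold in all 3 comparisons. The median log2 ratio was -0.85 on BDL day 3 against day 0 (29.2% of all genes were past 1.5-fold lower), -2.09 on BDL day 14 against day 0 (28.8%) and -1.10 on BDL day 14 against BDL day 3 (19.7%). Over all genes the medians were -0.02, -0.04 and -0.00. The 89 nuclear genes did not share this course. The median log2 ratio of the nuclear genes was 0.27 on BDL day 3 against day 0, -0.01 on BDL day 14 against day 0 and -0.30 on BDL day 14 against BDL day 3. The nuclear median thus lay above the mtDNA median by 1.12, 2.07 and 0.80 on the log2 scale. The 2 comparisons against day 0 share the day 0 libraries, and the 13 mtDNA genes share their libraries and their primary transcripts, so they are not 13 independent observations.

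The first of these comparisons depends on the highest day 0 library. For 13 of 13 mtDNA genes the highest of the 10 libraries could only be a day 0 library, as it could for 18.7% of all genes. In the 13 genes this library held between 46.8% and 70.6% of the summed count of the 3 day 0 libraries. The first comparison also depends on the scaling. Under quantile normalization 6 of 13 genes were past 1.5-fold lower on BDL day 3, and *mt-Atp6*, *mt-Co3* and *mt-Nd1* turned higher. With equal summed signal in each group 8 of 13 were past 1.5-fold lower. The share of all genes past 1.5-fold was not computed under these scalings. Without the highest library of each gene the day 0 mean was lower, and the median log2 ratio of BDL day 3 against it became -0.33, with 8 of 13 genes still lower and 2 past 1.5-fold. The ratio of BDL day 14 became -1.40, with a range from -1.88 to -0.91, and 13 of 13 genes remained past 1.5-fold lower. The table cannot tell whether the same mouse gave the highest count of every gene. Day 0 and BDL day 14 libraries could be shown not to overlap for 1 of the 13 genes, *mt-Nd4l* (4.9% of all genes were lower without overlap), which has a nuclear copy described below. None of the 13 could be shown not to overlap on BDL day 3 against day 0 (4.27%) or on BDL day 14 against BDL day 3 (2.78%).

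**Figure D1:**
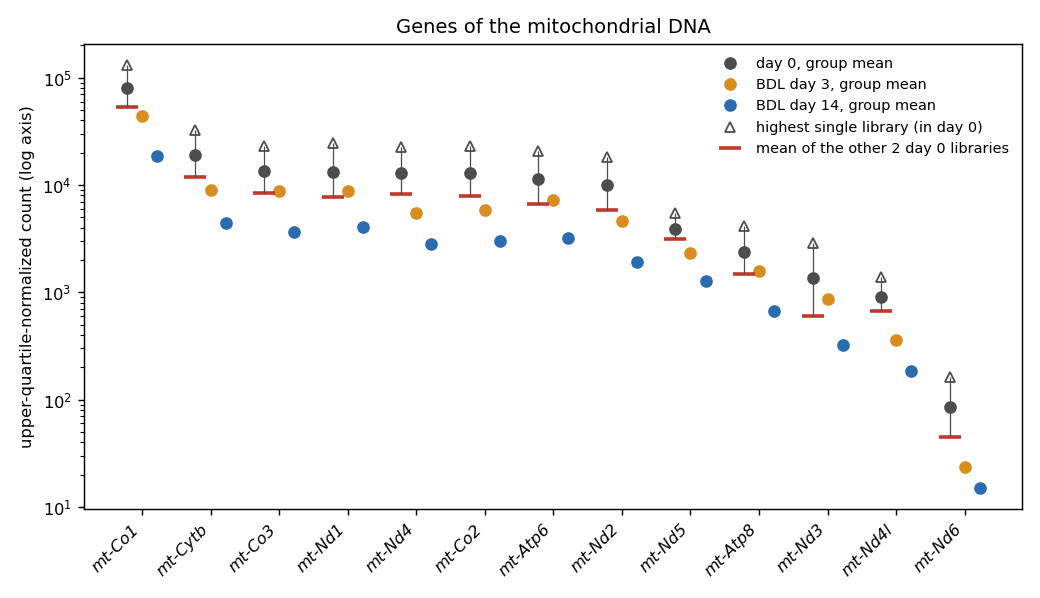
Normalized counts (log axis) of the 13 mtDNA genes: filled circles are the authors' group means on day 0, BDL day 3 and BDL day 14, open triangles the highest single library and red bars the mean of the other 2 day 0 libraries. The BDL day 14 mean lies under the red bar for every gene, and the BDL day 3 mean lies above it for *mt-Nd1*, *mt-Nd3*, *mt-Co3*, *mt-Atp6* and *mt-Atp8*.

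Complex I takes 7 of the 13 genes, all of them membrane subunits. *mt-Nd1* (chrM:2751-3707) had a mean of 13300 normalized counts on day 0, 8750 on BDL day 3 and 4080 on BDL day 14. *mt-Nd2* (chrM:3914-4951) went from 9940 to 4660 and 1900, and *mt-Nd4* (chrM:10167-11544) from 13000 to 5500 and 2810. The highest day 0 library stood at 24500 for *mt-Nd1*, 18100 for *mt-Nd2* and 22600 for *mt-Nd4*. *mt-Nd5* (chrM:11742-13565), the longest gene, had means of 3910, 2330 and 1280, and *mt-Nd3* (chrM:9459-9806) of 1360, 873 and 320. Their within-group spreads, 0.54 for *mt-Nd5* and 1.011 for *mt-Nd3*, were the lowest and the highest of the 13 genes. *mt-Nd4l* (chrM:9877-10173) had means of 914, 362 and 184 with a highest library of 1390.

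*mt-Nd6* (chrM:13552-14070) is the only protein gene read from the minus strand. Its means were 84.5 on day 0, 23.5 on BDL day 3 and 15.0 on BDL day 14, with a highest library of 163. Its log2 ratios of -1.85 on BDL day 3 and -2.49 on BDL day 14 were the lowest of the 13 genes against day 0, whereas its ratio of BDL day 14 to BDL day 3, -0.65, was the nearest to 0. Its last bases overlap *mt-Nd5* on the other strand, and whether the counting used strand is not given in the sources used here.

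In complex III, *mt-Cytb* (chrM:14145-15288), the cytochrome b subunit, had means of 18900, 8930 and 4470, or log2 ratios of -1.08 and -2.08 against day 0. In complex IV, *mt-Co1* (chrM:5328-6872), which carries the oxygen-reducing centre, had means of 79600, 44200 and 18700 and a highest library of 131000. It held 44.0%, 44.6% and 42.3% of the mtDNA signal in the 3 groups. *mt-Co2* (chrM:7013-7696), which receives electrons from cytochrome c, had means of 12900, 5870 and 2980. *mt-Co3* (chrM:8607-9390) had means of 13400, 8770 and 3630. The complex V genes *mt-Atp6* (chrM:7927-8607) and *mt-Atp8* (chrM:7766-7969) had means of 11400, 7260 and 3210, and of 2370, 1570 and 672.

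On BDL day 3 the mtDNA genes thus comprised 5 with log2 ratios from -0.65 to -0.59 (*mt-Nd1*, *mt-Nd3*, *mt-Co3*, *mt-Atp6* and *mt-Atp8*) and 8 that were lower. The same 5 genes were the ones whose ratio changed sign without the highest day 0 library. On BDL day 14 against day 0 the 13 ratios lay between -2.49 and -1.61. Each of these was more than 2 within-group SDs of its gene, where 50.4% of all genes exceeded 1 SD in either direction. On BDL day 3 against day 0, 8 of 13 exceeded 1 SD (49.3% of all genes) and 2 exceeded 2 SDs. The lowest value that any day 0 library can have had was above the BDL day 14 mean for 6 of the 13 genes and above the BDL day 3 mean for 0. No share of all genes was computed for 2 SDs or for this lowest value.

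Stretches of mtDNA also occur as copies in the nuclear genome, and 7 of the 13 genes matched a listed copy over at least 100 bases at 97% identity or more. *Gm28437* on chromosome 1 (chr1:24613189-24613971) matches *mt-Co3* over 783 of its 784 bases with no mismatch and was listed with the same 3 means, 13400, 8770 and 3630. *Gm10925*, the copy of *mt-Atp6*, had means of 11500, 7250 and 3380, and *Gm28661*, the copy of *mt-Co2*, of 13400, 6000 and 3500. *Gm28438*, the copy of *mt-Nd3*, had log2 ratios of -0.76 and -1.95 against day 0. The level of these genes and of their copies cannot be told apart in the table. *mt-Co1* differs from them, since its copies *Gm29216* and *Gm13340* stood at 2480 and 15.5 on day 0, or 3.12% and 0.0195% of its mean. *mt-Nd4* has a copy of 876 bases, *Gm28439*, with a mean of only 4.8 on day 0. *Gm10222* matches *mt-Nd4l*, the gene shown above not to overlap, over 294 of its 297 bases with no mismatch. This copy had means of 278, 120 and 56.2, or 30.4% of the mean of *mt-Nd4l* on day 0. How reads were divided between *mt-Nd4l* and its copy is not known. When the signal of the copies was added to that of the mtDNA genes, the median log2 ratios kept their direction and stayed past 1.5-fold.

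The mtDNA genes together held 19.6% of the summed normalized counts on day 0, 11.7% on BDL day 3 and 6.01% on BDL day 14. The nuclear members held 0.74%, 1.04% and 1.03%. The ratio of mtDNA to nuclear signal within the set was therefore 26.5 on day 0, 11.3 on BDL day 3 and 5.83 on BDL day 14. Without the highest day 0 library of each mtDNA gene, the mtDNA share on day 0 was 13.6% and the ratio 17.1. With the nuclear copies added, the mtDNA share was 24.2%, 14.7% and 7.68%. In sorted cells measured in bulk, fewer cells of a mitochondria-rich type and less mitochondrial RNA per cell cannot be told apart.

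**Figure D2:**
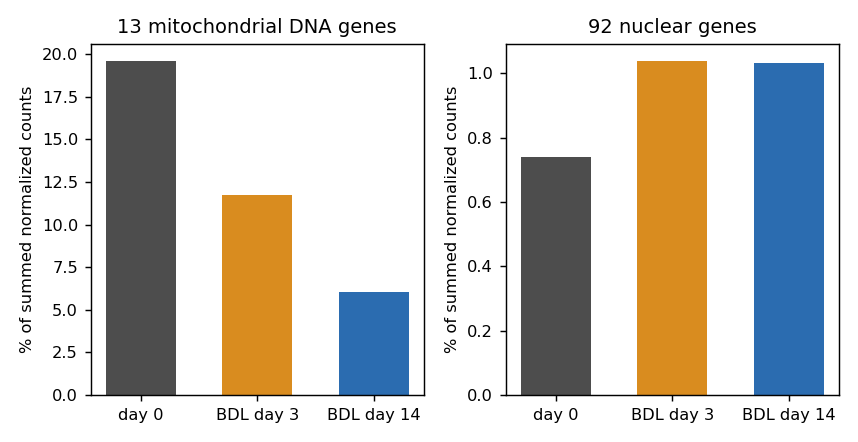
Percentage of the summed normalized counts of all listed genes held by the 13 mtDNA genes (left) and by the 92 nuclear genes (right) in each group; bars are made from the authors' group means and have no error. The left bars go down from 19.6% (13.6% without the highest day 0 library of each mtDNA gene) to 6.01%, and the right bars lie between 0.74% and 1.04%.

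Markers of other cell types moved between the same groups. The 6 erythroid markers summed to 74552 normalized counts on day 0, 7729 on BDL day 3 and 4484 on BDL day 14, with single means from 21.6 to 29700, from 0.517 to 2760 and from 1.57 to 1680. The 12 hepatocyte markers summed to 3964, 1084 and 449, with *Alb*, serum albumin, at 2440, 642 and 271. Of them, 12 of 12 were lower than on day 0 on BDL day 3 (50.9% of all genes) and on BDL day 14 (51.8%). The 10 macrophage markers summed to 17074, 34220 and 30512, with 9 of 10 past 1.5-fold higher on BDL day 3 (19.2% of all genes). Only 3 of 10 were past 1.5-fold higher on BDL day 14 than on day 0 (21.2%). There *C1qc* was past it lower (28.8% of all genes) and 4 of 10 were below 0 (51.8%). *Lyz2*, at 11200, and *Ctsb*, at 7290, made up most of the sum. The 10 cholangiocyte markers summed to 524, 204 and 830, of which *Spp1*, an osteopontin gene that macrophages also use, made up 459, 175 and 792. The keratin genes *Krt19* and *Krt7* that define bile duct cells had means of 21.5 and 10.9 on day 0, and both were detected in every group. No marker of these 4 lists stood at the lowest value of its column on day 0, and *Sctr* alone did on BDL day 3. The 10 mesenchymal markers summed to 1456, 26.1 and 138, the 8 sinusoidal endothelial markers to 1116, 601 and 1128, the 8 T and NK cell markers to 137, 40.9 and 11.4, the 5 B cell markers to 366, 87.0 and 55.4, and the 6 neutrophil markers to 542, 266 and 180. The part of these changes in the mtDNA and nuclear results was not tested.

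Both ribosomal RNAs of the mtDNA, which are no members, were also listed. *mt-Rnr1* had means of 7110, 1950 and 2330 and *mt-Rnr2* of 10700, 3090 and 4960. Their log2 ratios on BDL day 3 against day 0, -1.87 for *mt-Rnr1* and -1.79 for *mt-Rnr2*, were lower than those of all 13 mRNAs and of 12 of the 13, and both were higher on BDL day 14 than on BDL day 3, where all 13 mRNAs were lower. The libraries were made by an mRNA protocol, so the ribosomal RNAs were measured only as far as that protocol took them up.

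Of the 89 nuclear genes, 75 were higher on BDL day 3 than on day 0, or 84.3%, against 48.8% of all genes. Against day 0, 43 were higher on BDL day 14, or 48.3% (48.0% of all genes), and 46 lower. On BDL day 14 against BDL day 3, 68 were lower, or 76.4%, against 50.1% of all genes. These shares of all genes include many genes of low level. Among genes whose group means averaged at least 10, the all-gene median on BDL day 3 against day 0 was 0.18 in place of -0.02. It was 0.12 on BDL day 14 against day 0 and -0.05 on BDL day 14 against BDL day 3. The share of those genes above 0 was not computed. Past 1.5-fold, 16 nuclear genes were higher, or 17.98% (19.2% of all genes), and 1 was lower, or 1.12% (29.2% of all genes). The lower gene, *Ndufa4l2*, passed the filter only through its day 0 level, and with means of at least 10 the count was 0. On BDL day 14 against day 0, 9 were past 1.5-fold higher, or 10.1% (21.2% of all genes), and 4 were lower, or 4.49% (28.8%). On BDL day 14 against BDL day 3, 2 were higher (21.2% of all genes) and 15 were lower, or 16.9% (19.7%). Under the authors' scaling the share past 1.5-fold was thus under that of all genes in each comparison and direction. The gap was small for 17.98% against 19.2% and for 16.9% against 19.7%. The median within-group spread was 0.45 over the nuclear members and 0.58 over all genes, and its part in these shares was not tested. When the groups were instead scaled to equal summed signal, the median of all genes on BDL day 14 against day 0 was 0.29 in place of -0.04, and the nuclear median there became 0.31, so that its sign depends on the scaling. The count there became 25 higher and 2 lower, and with the mtDNA genes left out of the sum 14 were higher. The share of all genes past 1.5-fold was not computed under these scalings, so these counts have no background. The nuclear genes had means from 0.805 to 291 on day 0, against 84.5 to 79600 for the mtDNA genes.

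**Figure D3:**
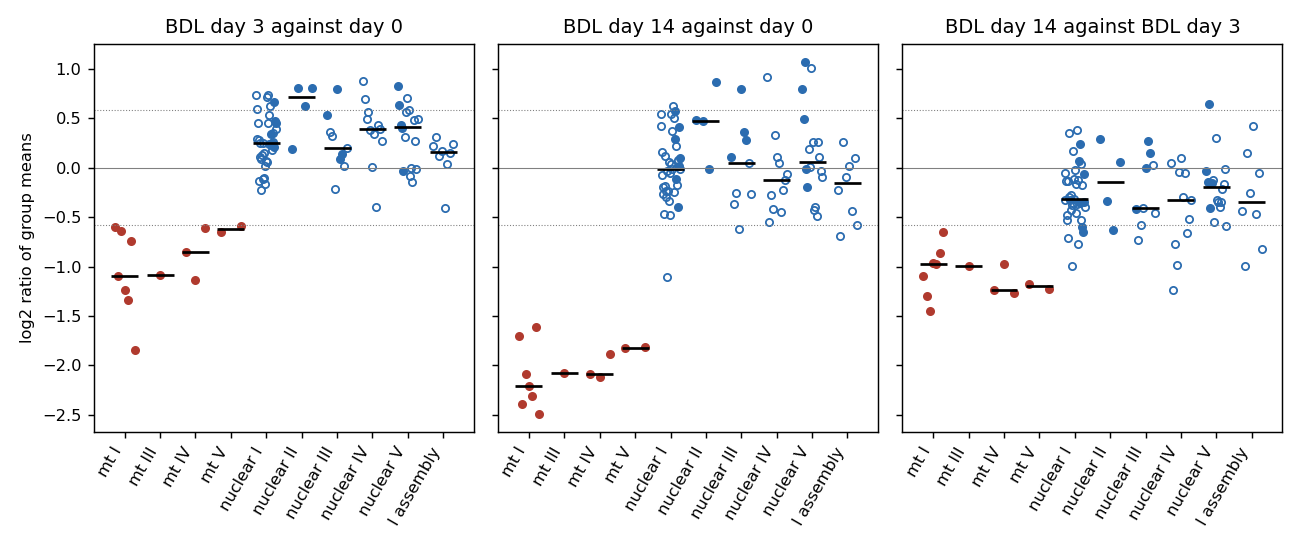
Log2 ratios of group means for each member kept, by genome and complex: red points are mtDNA genes, blue points nuclear genes (filled, core subunits; open, accessory subunits and assembly factors), black bars medians and dotted lines 1.5-fold. *Ndufa4l2*, other minor isoforms, *Cox7a2l*, *Atp5s* and *Cycs* are not drawn. All mtDNA points lie below the lower dotted line in the 3 panels, while the nuclear medians lie between -0.41 and 0.71.

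Complex I had 36 nuclear subunits, with a median log2 ratio of 0.25 on BDL day 3. There 31 of 36 were above 0 (48.8% of all genes) and 6 past 1.5-fold higher, or 16.7% (19.2% of all genes). The median for BDL day 14 was -0.01, with 17 above 0 (48.0% of all genes) and 19 below. Its 7 core subunits, which hold the flavin and the iron-sulphur clusters, were all higher on BDL day 3, with a median of 0.34. *Ndufs8*, an iron-sulphur subunit, had means of 102, 162 and 103, log2 ratios of 0.67 on BDL day 3 and 0.01 on BDL day 14. *Ndufv1*, which binds NADH, had means of 42.1, 58.5 and 56.0. *Ndufv2* had means of 78.9, 108 and 84.6, *Ndufs1* of 24.9, 29.1 and 30.4, and *Ndufs3* of 68.5, 81.5 and 63.4. *Ndufs7* was the core subunit with the lowest ratio on BDL day 14, with means of 44.0, 50.9 and 33.5 and a log2 ratio of -0.39.

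Among the 29 accessory subunits of complex I, *Ndufa1* (33.2, 55.4 and 44.3), *Ndufb8* (97, 161 and 125), *Ndufb6* (21.0, 34.4 and 30.6), *Ndufc2* (32.7, 50.5 and 46.2) and *Ndufa10* (69.5, 105 and 101) were past 1.5-fold higher on BDL day 3. *Ndufa6* had the lowest ratio there, -0.23. The highest for BDL day 14 was *Ndufb9*, with means of 50.4, 59.6 and 77.8 and a log2 ratio of 0.63. The lowest was *Ndufab1*, the mitochondrial acyl carrier protein, which also serves fatty acid and lipoate synthesis. Its means were 37.0, 34.2 and 17.2, or a log2 ratio of -1.11 on BDL day 14 with a within-group spread of 0.40. *Ndufa3* and *Ndufc1* were past 1.5-fold lower on BDL day 14 than on BDL day 3, with ratios of -0.72 and -0.78.

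The 8 assembly factors of complex I named *Ndufaf* were low, with means of at most 12.9, and their median log2 ratios were 0.16 on BDL day 3 and -0.16 on BDL day 14. *Ndufaf2* had means of 7.83, 9.67 and 4.85 and was past 1.5-fold lower on BDL day 14 against day 0, with a spread of 0.97. *Ndufaf8* had means of 10.9, 12.9 and 7.30, past 1.5-fold lower on BDL day 14 than on BDL day 3. *Ndufaf5* was the one with the lowest ratio on BDL day 3, -0.41, and *Ndufaf3* the one with the highest on BDL day 14, 0.26.

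Complex II, which is also an enzyme of the citric acid cycle, had the highest median of the 5 complexes on BDL day 3, 0.71, and on BDL day 14, 0.47, from only 4 genes. *Sdhb*, the iron-sulphur subunit, had means of 104, 182 and 144. *Sdhd*, a membrane anchor, had means of 49.3, 86.2 and 89.6, log2 ratios of 0.81 and 0.86 and a spread of 0.24. *Sdhc*, the other anchor, went from 78.8 to 121 and back to 78.0. *Sdha*, the flavoprotein, had means of 75.3, 85.7 and 105. *Sdhd* was 1 of 2 members whose BDL libraries must all have lain above the day 0 libraries, both on BDL day 3 (3.58% of all genes) and on BDL day 14 (3.29%). The other was *Atp5a1*, below.

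Complex III had 9 nuclear subunits with medians of 0.19 and 0.05 against day 0. *Uqcrc1*, a core protein, had means of 74.0, 128 and 128, a log2 ratio of 0.79 at both times. Its partner *Uqcrc2* had means of 83.6, 88.6 and 107. *Uqcrfs1*, the Rieske iron-sulphur protein, went from 48.1 to 52.8 and 58.4, and *Cyc1*, cytochrome c1, from 42.5 to 61.4 and 45.9. *Uqcrb* was the lowest of the complex at both times, with means of 103, 88.9 and 67.1 and a log2 ratio of -0.62 on BDL day 14. *Uqcr10* was past 1.5-fold lower on BDL day 14 than on BDL day 3, with means of 93.5 on BDL day 3 and 56.4 on BDL day 14. *Cycs*, cytochrome c itself, had means of 69.1, 96.3 and 56.5, and its log2 ratio of BDL day 14 to BDL day 3 was -0.77.

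Complex IV had 11 nuclear subunits, counting *Ndufa4*, with medians of 0.39 on BDL day 3 and -0.13 on BDL day 14. *Cox4i1* stood apart from the rest, with means of 247, 452 and 467 and log2 ratios of 0.87 and 0.92. *Cox5a* had means of 106, 171 and 72.6, so that it was past 1.5-fold higher on BDL day 3 and, with a log2 ratio of -1.24, had the lowest ratio of BDL day 14 to BDL day 3 of all nuclear members. *Cox5b* (106, 149 and 87.3), *Cox6a1* (106, 157 and 79.1) and *Cox7c* (103, 139 and 88.2) were also past 1.5-fold lower on BDL day 14 than on BDL day 3, but did not reach 1.5-fold on BDL day 3 against day 0. *Cox7b* was the subunit with the lowest ratio on BDL day 3, -0.39, with means of 128, 97.4 and 93.6, and *Cox5a* had the lowest on BDL day 14 against day 0, -0.55.

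Complex V had 16 nuclear subunits with medians of 0.42 and 0.05. The catalytic head was represented by *Atp5a1*, with means of 254, 451 and 441, and *Atp5b*, with means of 291, 451 and 409. For *Atp5a1* the spread was 0.14, log2 ratios were 0.83 and 0.80, and the libraries of both BDL groups lay above those of day 0. *Atp5c1*, the central stalk, had means of 96.6, 130 and 203, and its log2 ratio of 1.07 on BDL day 14 was the highest of any subunit. *Atp5d* (87.8, 116 and 87.2) and *Atp5e* (169, 165 and 148), the small subunits of the same stalk, had log2 ratios of -0.01 and -0.19 on BDL day 14. *Atp5o* had means of 166, 234 and 155 and was past 1.5-fold lower on BDL day 14 than on BDL day 3. *Atp5j2* had the lowest ratio of the complex, -0.14 on BDL day 3 and -0.49 on BDL day 14. *Atp5s*, a factor outside the complex, was past 1.5-fold higher at both times, with means of only 0.805, 1.76 and 1.78, and passed the filter through the BDL groups.

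Taken by role, the 20 core subunits of the 5 complexes had median log2 ratios of 0.44 on BDL day 3 and 0.32 on BDL day 14, with 19 and 15 of 20 above 0. The 56 accessory subunits had medians of 0.27 and -0.06, with 45 and 23 of 56 above 0. Of all genes, 48.8% were above 0 on BDL day 3 and 48.0% on BDL day 14. The mRNA length of a gene was set beside these ratios. Nuclear members with a median mRNA length of 1000 nt or more had medians of 0.28 and 0.22 (35 genes), and those under 1000 nt of 0.27 and -0.11 (54 genes). Among all other protein_coding genes the medians on BDL day 14 against day 0 were -0.04 for 10974 genes of 1000 nt or more and -0.08 for 958 shorter ones. On BDL day 3 against day 0 they were -0.04 for the long genes, with 47.8% above 0, and 0.16 for the short ones, with 60.3%. Of the members, 91.4% of the long and 79.6% of the short ones were above 0 there. On BDL day 14 against BDL day 3, where the short members had a median of -0.33, the short genes outside the set had one of -0.23 and the long ones of 0.01. For BDL day 14 against day 0, Spearman's rho of length and log2 ratio was 0.26 across the 89 members. Across 12034 protein_coding genes it was 0.01. For BDL day 3 against day 0 these values were 0.11 and -0.12, and for BDL day 14 against BDL day 3 they were 0.18 and 0.19. The genes share libraries and are not independent.

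**Figure D4:**
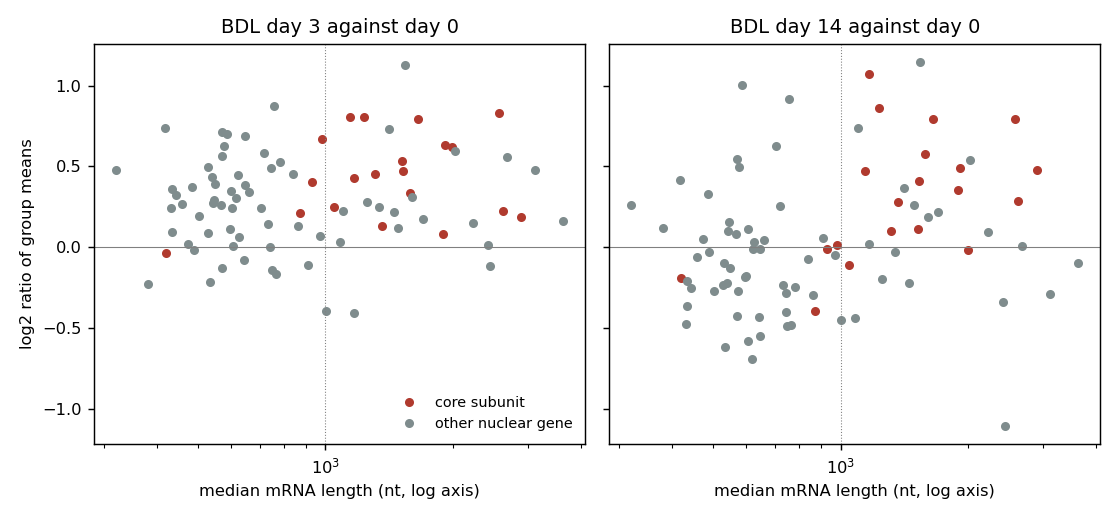
Log2 ratio of group means against the median length of the protein_coding mRNAs of each gene (log axis) for 88 nuclear members, with *Ndufa4l2* left out; red points are core subunits, grey points the others, and the dotted line marks 1000 nt. In the right panel 24 of the 35 genes of 1000 nt or more lie above 0, against 19 of the 54 shorter genes, counted with *Ndufa4l2*.

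Several subunits exist as isoforms of separate genes. Per kilobase of mRNA, *Cox4i1* stood at 327, 599 and 619 normalized counts in the 3 groups, and *Cox4i2*, the isoform of lung and of low oxygen, at 2.01, 0.77 and 0.974. *Cox6a1* exceeded *Cox6a2* 206-fold on day 0, and *Cox7a2* exceeded *Cox7a1* 68.6-fold, so the heart and muscle isoforms were near the low end of the table in every group. *Cox6b1* exceeded the testis isoform *Cox6b2* 99.6-fold on day 0. *Cox7a2l*, which takes part in joining complexes III and IV, had means of 182, 213 and 303, with a log2 ratio of 0.74 on BDL day 14. Per kilobase, *Cox7a2* stood at 0.71 of *Cox7a2l* on day 0, 0.77 on BDL day 3 and 0.44 on BDL day 14.

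*Ndufa4l2*, a paralogue of *Ndufa4* that is induced by low oxygen, had a mean of 3.23 on day 0 and was listed at 0.0729 on BDL day 3, the lowest value of that column, which 1284 genes share. Its mean on BDL day 14 was 0.303. No fold is given for it on BDL day 3. It passed the filter only through its day 0 level, so its difference from the BDL groups is a description. *Ndufa4* itself had means of 78.8, 94.7 and 75.6.

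Subunit c of ATP synthase is made from 3 genes that encode the same mature protein. *Atp5g2* had means of 60.8, 98.9 and 122, *Atp5g3* of 78.8, 118 and 94.0, and *Atp5g1* of 72.7, 107 and 73.0. Per kilobase, *Atp5g2* made up 43.1% of their signal on day 0, 45.2% on BDL day 3 and 56.8% on BDL day 14. The share of *Atp5g3* was 45.6%, 44.0% and 35.7%. The mRNA length of *Atp5g1* is uncertain, because its annotated transcripts differ in length, and its share of 11.3%, 10.7% and 7.45% depends on it.

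Many nuclear members have processed pseudogenes or neighbours. At 97% identity over at least 100 bases, 28 nuclear members had a copy among the listed genes, 28 overlapped an exon of a gene on the other strand and 5 one on the same strand. Without every member that shared sequence or exons in this way, 47 nuclear members remained, with median log2 ratios of 0.32 on BDL day 3 and -0.01 on BDL day 14 against day 0, and of -0.32 on BDL day 14 against BDL day 3.

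Nuclear respiratory factor 1 (NRF1), the ETS factor GABP and YY1 are known regulators of nuclear genes for the respiratory chain. Promoter sequences, 250 bases before to 50 after the start, were found in RefSeq (GRCm38.p6) for 74 of the 89 nuclear members, 2 of them by an older symbol. The NRF1 letters GCGCATGC, read on both strands, were in 17.6% of these 74, in 5.82% of the promoters of 9667 kept protein_coding genes and in 3.05% of all promoters. The YY1 letters AAGATGGC were in 14.9%, 5.30% and 3.19%, and the ETS letters ACTTCCGG in 6.76%, 9.11% and 4.31%. The 13 members with the NRF1 letters had median log2 ratios of 0.32 on BDL day 3 and 0.10 on BDL day 14, and the 61 without them of 0.28 and -0.03. A match of letters is no evidence of binding. The 150 bases before the start are shown for 3 members with the NRF1 letters that were among the values above, *Atp5g2*, *Sdhb* and *Cycs*. They lie at chr15:102671048-102671197 (minus strand), chr4:140961121-140961270 (plus strand) and chr6:50566570-50566719 (minus strand), and capitals mark the NRF1 letters, which occur in *Atp5g2* on both strands in overlap.
Atp5g2: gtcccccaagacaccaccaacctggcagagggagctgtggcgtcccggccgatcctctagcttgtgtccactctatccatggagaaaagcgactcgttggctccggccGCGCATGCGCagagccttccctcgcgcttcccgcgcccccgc
Sdhb: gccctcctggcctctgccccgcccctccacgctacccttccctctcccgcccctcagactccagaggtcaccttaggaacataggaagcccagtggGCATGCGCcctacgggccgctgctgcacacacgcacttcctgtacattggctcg
Cycs: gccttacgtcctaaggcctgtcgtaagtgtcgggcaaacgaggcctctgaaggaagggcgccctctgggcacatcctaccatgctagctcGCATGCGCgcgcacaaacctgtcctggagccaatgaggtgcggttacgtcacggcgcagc

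The factors themselves were measured. *Gabpa* had means of 13, 13.1 and 27.8, a log2 ratio of 1.10 on BDL day 14, and its partner *Gabpb1* of 8.30, 8.19 and 15.1. *Nrf1* had means of 9.74, 13.8 and 15.6, and *Yy1* of 27.5, 26.8 and 26.2. On BDL day 3 none of the 9 regulators kept was past 1.5-fold higher (19.2% of all genes) or lower (29.2%). Their log2 ratios there ran from -0.31 for *Hif1a* to 0.50 for *Nrf1*. For BDL day 14 against day 0, 4 were higher, or 44.4% (21.2% of all genes), and 2 lower, or 22.2% (28.8%). The coactivator *Pprc1* had the lowest ratio of the 9 regulators kept, -1.10 on BDL day 14, and *Ppargc1a*, the coactivator of mitochondrial biogenesis, stood at 1.55 on day 0 and at 0.182 and 0.11 after BDL, under the filter. *Gabpa* shares bases with *Atp5j* on the other strand, where the reads of both could be mixed.

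Of 14 genes of mtDNA transcription and replication, 0 were past 1.5-fold higher on BDL day 3 (19.2% of all genes) and 3 were lower, or 21.4% (29.2%). For BDL day 14 against day 0, 1 was higher, or 7.14% (21.2% of all genes), and 6 were lower, or 42.9% (28.8%). The median log2 ratios were -0.23 on BDL day 3 and -0.39 on BDL day 14. *Polrmt*, the mitochondrial RNA polymerase, had means of 8.78, 5.84 and 4.75, a log2 ratio of -0.89 on BDL day 14. *Tfam*, which packages mtDNA and opens its promoters, had means of 16.2, 17.4 and 21.0, and *Tfb2m*, which melts the promoter with the polymerase, of 7.87, 9.77 and 14.2, the highest ratio of the list at both times. *Twnk*, the helicase, had means of 8.14, 5.37 and 4.30, and *Polg*, the DNA polymerase, of 26.6, 20.7 and 13.8. *Polg2* had the lowest ratio on BDL day 3, -1.51, and *Mterf1a* the lowest on BDL day 14, -1.11. The spread of these genes was wide, with a median of 0.66, and their day 0 means were at most 26.6.

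Among 14 genes for processing and stability of mitochondrial RNA, the medians were -0.11 and 0.10. *Lrpprc*, which stabilizes mtDNA mRNAs, had means of 15.7, 12.6 and 19.4, and its partner *Slirp* of 26.9, 23.4 and 20.3. *Pnpt1*, part of the RNA-degrading exonuclease, had the lowest ratio on BDL day 3, with means of 23.4, 13.1 and 14.2. *Tbrg4* was the highest on BDL day 3, 0.91, *Fastkd5* on BDL day 14, 0.69, and *Fastkd1* the lowest on BDL day 14, -0.77.

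The 78 proteins of the mitochondrial ribosome, all encoded in the nucleus, had a median of 0.37 on BDL day 3, with 21 past 1.5-fold higher, or 26.9% (19.2% of all genes), and 2 lower, or 2.56% (29.2%). For BDL day 14 the median was 0.14, with 14 higher, or 17.9% (21.2%), and 8 lower, or 10.3% (28.8%). *Mrps23* had the highest ratio at both times, with means of 17.6, 45.9 and 45.9. *Mrpl47* was the lowest on BDL day 3, -0.78, and *Mrps6* on BDL day 14, with means of 21.9, 33.8 and 8.38. The 17 citric acid cycle genes had medians of 0.45 and 0.23, with 5 past 1.5-fold higher on BDL day 3, or 29.4% (19.2% of all genes), and 2 on BDL day 14, or 11.8% (21.2%). None was past it lower at either time (29.2% and 28.8%). *Dlat*, of the pyruvate dehydrogenase complex, had the highest ratios, with means of 9.42, 18.9 and 16.9. *Sucla2* was the lowest on BDL day 3, -0.35, and *Ogdh* on BDL day 14, -0.38.

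Of 38 kept assembly factors that the rule does not take in, 10 were past 1.5-fold higher on BDL day 3, or 26.3% (19.2% of all genes), and 1 lower, or 2.63% (29.2%), with a median of 0.15. For BDL day 14, 7 were higher, or 18.4% (21.2%), and 10 lower, or 26.3% (28.8%), with a median of -0.19. *Cox10*, for heme A of complex IV, was the highest on BDL day 3, with means of 4.63, 11.7 and 7.63, and *Bcs1l* the lowest, -0.81. On BDL day 14 *Cox11*, for copper insertion, was the highest, 1.28, and *Cox17*, the copper chaperone, the lowest, with means of 38.1, 36.9 and 15.7. Of 19 import genes, 7 were past 1.5-fold higher on BDL day 3, or 36.8% (19.2% of all genes), and 4 on BDL day 14, or 21.1% (21.2%), and 1 was lower at each time, or 5.26% (29.2% and 28.8%). *Tomm20*, a receptor of the outer membrane, had the highest ratios of that list, with means of 42.3, 100 and 115, and *Timm21* the lowest, with means of 13.1, 5.20 and 5.37. Of 8 carriers and outer membrane proteins kept, 8 were above 0 on BDL day 3 (48.8% of all genes), with a median of 0.49. *Vdac2*, a channel of the outer membrane, had means of 113, 216 and 219, and *Slc25a5*, which exchanges ADP for ATP, of 266, 474 and 423. *Ucp2*, a member of the uncoupling protein family that macrophages express, had means of 654, 789 and 463, the lowest ratio of this list on BDL day 14. *Slc25a4*, another exchanger of ADP and ATP, had the lowest on BDL day 3, 0.17.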

How the data were processed

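RNA was measured by mRNA sequencing of sorted GFP(+) cells. Per the labels and the study's methods, the authors trimmed reads, aligned them with STAR (2.6.1d in the submitters' processing notes, another version in the methods) to mm10 with GENCODE M18, and normalized gene counts by upper quartile in Partek. The deposited values are a signal: group means of normalized counts, the geometric mean over 10 libraries and the highest library. Columns of the authors' comparisons (p-values, FDR, ratios, fold changes and limits) were not used. No values of single named libraries were analysed, so the planned tests were replaced by ratios of means, a 1.5-fold threshold and a spread derived from the means. Members and lists were chosen with earlier results of these data known. Named genes were the 13 mtDNA genes, nuclear members past 1.5-fold, extremes of each complex and list, core subunits, *Cycs* and isoform pairs; others were chosen after their values were seen. Values of 1 core subunit that this rule names are not reported here.

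Genes needed normalized counts summing to at least 10. Lengths, overlaps and copies came from GENCODE M21 transcripts (GRCm38), with BLAST 2.17.0 at 97% identity over 100 nt, and promoters from RefSeq. Python 3.11.15, numpy 2.4.6, pandas 2.3.3, scipy 1.17.1 and matplotlib 3.10.9 were used. Alternatives were other filters, a pseudocount, other scalings, a threshold of 2-fold and leaving out the highest library where its group could be placed. Adding nuclear copies, leaving out genes with shared sequence and the day 0 share without the highest library were chosen after seeing the data. Read depth is unknown.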

Additional observations from a re-analysis of the deposited data

How the results depend on the processing

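The mtDNA medians kept their direction under all alternatives, between -0.85 and -0.33 for BDL day 3 over day 0 (here the first comparison), -2.09 and -1.40 for BDL day 14 over day 0 (the second), and -1.10 and -0.68 for BDL day 14 over BDL day 3 (the third). The nuclear medians lay between 0.15 and 0.40, -0.09 and 0.31, and -0.32 and -0.11; the second changed sign under 3 of 10 alternatives. The values that follow moved past a limit, and the cause was not tested unless the alternative itself sets it. For the counts among them, no share of all genes was computed under the same alternative. Without a filter, 2 and 7 nuclear genes were past 1.5-fold lower in the first and second; with means of at least 10, 0 and 2 were lower, and 1 was higher in the third, as with a pseudocount of 1. Under quantile normalization the mtDNA median was -0.58 in the first, with 6 genes lower, 8 nuclear genes were higher and 2 lower, 7 nuclear genes were lower in the second, and the nuclear minus mtDNA difference was 1.35 in the second and 0.48 in the third. There *mt-Atp6* stood at 0.17, *mt-Co3* at 0.24 and *mt-Nd1* at 0.085 in the first. With equal summed signal, 8 mtDNA genes were lower and 26 nuclear genes higher in the first, 25 nuclear genes were higher and 2 lower in the second, and 4 higher and 5 lower in the third; without mtDNA genes in the sum, 14 were higher in the second. At 2-fold, 6 mtDNA genes were lower and 1 nuclear gene higher in the first, 3 nuclear genes were higher and 2 lower in the second, and 7 mtDNA genes were lower, with 1 nuclear gene higher and 1 lower, in the third. The highest library was left out only where its group could be placed. That was so for 13 of 13 mtDNA genes but not for 72 of 89 nuclear genes, which stayed as they were. With it left out, the mtDNA median was -0.33 with 2 genes lower and a difference of 0.57 in the first. The difference was 1.38 in the second, and 1 nuclear gene was higher in the third. There *mt-Atp6* stood at 0.12, *mt-Atp8* at 0.080, *mt-Co3* at 0.054, *mt-Nd1* at 0.18 and *mt-Nd3* at 0.54 in the first. Without the 10 highest genes of a group, mtDNA genes held 8.94% at day 0 and 4.21% at BDL day 3, and nuclear genes 1.09% at day 0. No paired analysis was possible because the table gives 1 mean per group, and for the same reason single mice could not be left out in turn.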
